A study of Homo sapiens with 42 samples.

Results

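The transcripts described here encode enzymes that write N6-methyladenosine (m6A), a methyl group on adenosines inside RNA, and their partner proteins. These transcripts were followed as m6A targets themselves, in HepG2 cells, a human liver cancer line. The members are 9 genes chosen by identifier: METTL3 and METTL14, the catalytic pair; WTAP, the adaptor that holds the pair to its partners; VIRMA, ZC3H13, CBLL1, RBM15 and RBM15B, regulatory subunits; and METTL16, a separate m6A enzyme that acts alone. Every m6A peak that the authors assigned to one of these genes was taken. The control list held 29 such peaks out of 33672, in all 9 genes out of 14571 with a peak.

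As background, METTL3 binds the methyl donor S-adenosylmethionine and transfers the methyl group, while METTL14 has no methyltransferase activity of its own and supports RNA binding. WTAP, VIRMA, ZC3H13, CBLL1 and the RBM15 proteins form the larger regulatory part, which keeps the complex in the nucleus and directs it to its sites. METTL16 methylates a small number of structured RNAs, among them the transcript of MAT2A, which makes the methyl donor.

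In the assay, fragmented mRNA was pulled down with an m6A antibody (IP) and sequenced beside unselected RNA (input). Lentiviral short hairpin RNAs (shRNAs), kept under puromycin selection, were non-specific (control) or aimed at METTL3, METTL14, WTAP or SETD2 (shSETD2#1), and a further non-specific control was paired with shSETD2#2. SETD2 methylates lysine 36 of histone H3. The 42 samples were 3 input and 3 IP libraries for each of 7 conditions, and all cells of every group carried an shRNA. The authors joined replicates 1 to 3 into 1 peak list per condition, so no value below has a replicate error and no difference between lists could be tested. The lists that share the control (METTL3, METTL14, WTAP and SETD2 #1) are called the first set here, and the second control and SETD2 #2 lists the second set. How far each shRNA lowered its target is not analysed here, because peak lists carry no RNA level. For the same reason the labelled cell type could not be checked by marker expression. Peak sequences are not printed, since no genome of the build used for the peaks was used here, and whether a peak lies in a coding part or a UTR was not analysed.

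The writer transcripts kept most of their control peaks in each list. A peak counts as absent where the searched list has nothing on the same strand that shares at least 1 base with its blocks. A block is a stretch of peak between introns. Of the 29 control peaks, 5 (17.2%, exact Clopper-Pearson 95% interval 5.85 to 35.8%) were absent from the METTL3-knockdown list, where 22.8% of all control peaks were absent. The METTL14-knockdown list lacked 11 (37.9%, 20.7 to 57.7%), against 29.8% of all control peaks. The WTAP-knockdown list lacked 10 (34.5%, 17.9 to 54.3%), against 28.8%. Each of these intervals holds the share of all peaks, so the writer transcripts as a group were not separated from the background in any of the 3 lists. In the shorter deposited lists, the members' shares for METTL14 and WTAP were both 26.1%, below the 29.3% and 27.1% of all peaks. For METTL3 and SETD2 #1 they were both 4.35% (1 of 23, exact interval 0.11 to 21.9%), against 20.4% and 26.2% of all peaks. The SETD2 #1 interval lay below its background there but held it in the main lists and in every other setting. The shares of all peaks were not matched for peak strength. The median log10 p in the control was -38.7 for the members and -11.8 for all peaks. With shSETD2#1, 5 control peaks (17.2%) were absent, against 27.0% of all. With shSETD2#2, 6 of the 33 second control peaks (18.2%, 6.98 to 35.5%) were absent, against 20.5% of all. Between the controls, the second control lacked 5 of the 29 control peaks (28.6% of all control peaks), and the control lacked 6 of the 33 second control peaks (15.6% of all). The SETD2 #2 list, which belongs to the other set, lacked 7 of the 29 control peaks (34.4% of all). All intervals here cover counting error only, and peaks of 1 transcript are not independent.

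**Figure D1:**
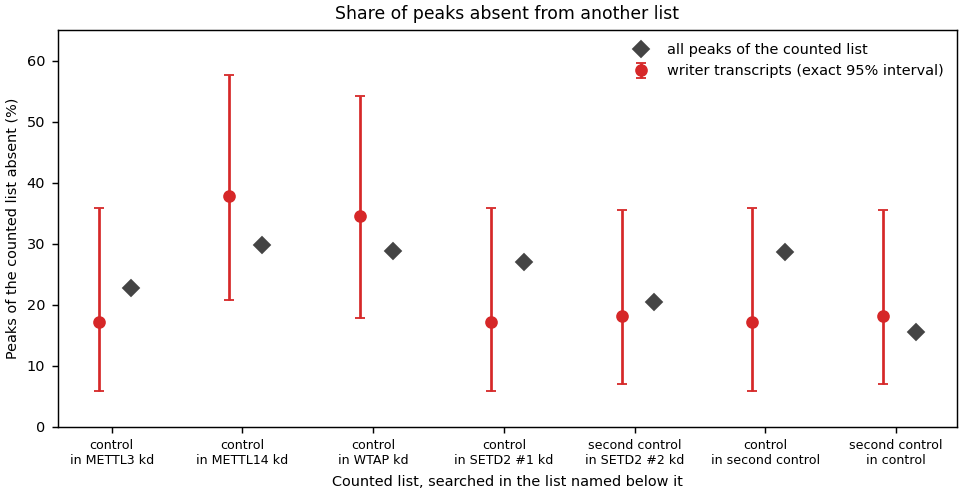
Share of peaks (%, vertical axis) of a counted list that are absent from a searched list (horizontal axis). Red points are the peaks on writer transcripts with exact 95% intervals and dark diamonds are all peaks of the counted list. The METTL14 and WTAP knockdown lists have the highest red points, 37.9 and 34.5%, and every interval holds its diamond.

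Among well supported peaks, meaning the better-ranked part of a list divided at its median p-value, the METTL14, WTAP and SETD2 #2 lists each lacked 4 control peaks. The median log10 p was -11.8 over all control peaks, and 22 of the 29 control peaks on writer transcripts were at or better than it. Of those 22, the METTL3 list lacked 0 (2.42% of all such control peaks), the METTL14 list 4 (7.9%), the WTAP list 4 (7.41%), the SETD2 #1 list 1 (3.24%), the second control 3 (7.28%) and the SETD2 #2 list 4 (9.84%). For METTL14 the 4 were a ZC3H13 peak, a CBLL1 peak and a pair of VIRMA peaks. For WTAP they were the same ZC3H13 and CBLL1 peaks, a single VIRMA peak and the METTL3 peak nearest the 3' end. Both lists of the second set lacked a pair of METTL3 peaks and the same CBLL1 peak, and SETD2 #2 also the ZC3H13 peak. Of 21 well supported second control peaks, SETD2 #2 lacked 0 (2.66% of all such peaks) and the control lacked 1 (6.06%).

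Whole transcripts left without a peak were CBLL1 and VIRMA. Their best control peaks were the least supported of the 9 members, with a log10 p of -12.3 and -38.7. Of the 9 genes, 2 had no peak in the METTL14 list, where 18.0% of all genes with a control peak had none, and 1, CBLL1, had none in the WTAP list, against 16.6%. In the METTL3 and SETD2 #1 lists 0 of 9 were left without a peak, against 12.9% and 15.1% of all genes. The same held for SETD2 #2 against its control (0 of 9, all genes 10.5%) and between the controls (0 of 9 each way, all genes 13.4% and 6.73%). With 9 genes these shares are coarse, and the background genes were not matched for number or strength of peaks. The 9 members held 29 control peaks, and the median over all genes was 2 per gene. In all, 16 of the 29 control peaks (55.2%) were found in each of the 6 other lists, against 45.7% of all control peaks, and the 5' peak of CBLL1 was the single member found in none of them.

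**Figure D2:**
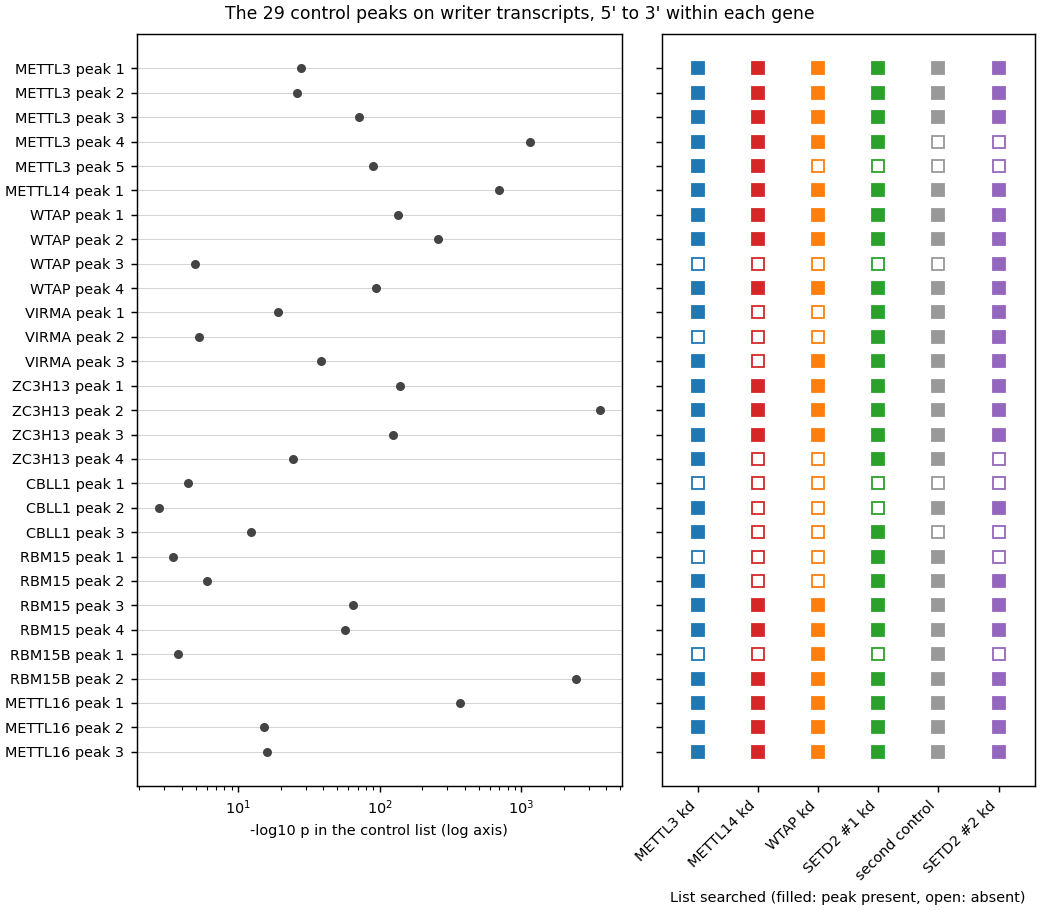
The 29 control peaks on writer transcripts, one per row, from the 5' to the 3' end of each gene. The left panel gives -log10 p in the control list on a log axis, and the right panel shows for each other list (kd, knockdown) whether a peak is present (filled) or absent (open). Most open squares belong to peaks of small -log10 p, and exceptions include the METTL3 peaks with log10 p of -1160 and -89.6.

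New peaks were few. The METTL3 list gained 2 of its 30 writer-transcript peaks (10.6% of all its peaks were absent from the control), the METTL14 list 0 of 25 (0%, exact interval up to 13.7%; all peaks 12.7%) and the WTAP list 1 of 25 (all peaks 13.5%). The SETD2 #1 list gained 2 of 31 (all peaks 8.07%) and the SETD2 #2 list 1 of 29 (all peaks 14.5%). All 6 were weak. The one with the best p-value lay in VIRMA in the SETD2 #2 list, on chromosome 8 from 95500759 to 95500938, at 4.37-fold and with -5.77 as its log10 p. Fold enrichment is the authors' ratio of IP over input at a peak. The ZC3H13 peaks gained in the METTL3 list (chromosome 13 from 46626595 to 46626685, 11.7-fold) and in the SETD2 #1 list (from 46626655 to 46626804, 4.72-fold) overlapped each other, further 5' than any control peak of the gene. The METTL3 list also gained a peak in RBM15 (chromosome 1 from 110881218 to 110881308, 9.64-fold), the WTAP list one in METTL3 (chromosome 14 from 21976335 to 21977643, 3.86-fold) and the SETD2 #1 list one in METTL14 (chromosome 4 from 119606583 to 119606733, 2.24-fold).

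METTL3 (ENSG00000165819), the catalytic subunit, carried 5 control peaks on the minus strand of chromosome 14 (build hg19), and its strongest lay toward the 3' end. That peak, from 21967470 to 21969182 in 4 blocks of 630 bases, had a log10 p of -1160 in the control, which ranked 561 among 33672 peaks. Its fold enrichment was 24.6 in the control, 42.4 in the METTL3 list, 14.7 in the METTL14 list, 11.1 in the WTAP list and 9.35 in the SETD2 #1 list. The lists of the second set held no peak there. They held instead a weaker peak a little further 5', from 21969862 to 21970575 with 2.68-fold enrichment in the second control and to 21970635 with 2.53-fold in SETD2 #2, where the first set had none. The strongest METTL3 site of the first set was thus missing from the second set with and without the SETD2 shRNA.

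In the cells with the METTL3 shRNA, the METTL3 transcript kept all 5 of its own control peaks. The 4-block peak had a p-value listed as 0 there and the highest fold enrichment of the 5 lists that hold it. The other 4 had poorer p-values than in the control: the log10 p was -27.8 in the control and -7.47 with the shRNA for the 5'-most peak, then -26.1 and -5.55, -71.2 and -22.8, and -89.6 and -42.9 for the 3'-most. Their fold enrichment in the same order was 5.14 and 4.06, 7.33 and 2.56, 3.64 and 4.57, and 4.6 and 5.94, thus lower with the shRNA for the pair on the 5' side and higher for the pair on the 3' side. Less METTL3 RNA and less methylation of it cannot be told apart in these p-values. The 5'-most peak, from 21979075 to 21979517, was present in all 7 lists, with 5.14-fold enrichment in the control, 4.06 with METTL3, 4.52 with METTL14, 3.09 with WTAP, 3.09 with SETD2 #1, 5.42 in the second control and 6.52 with SETD2 #2. The lowest values belonged to WTAP and SETD2 #1 and the highest to SETD2 #2.

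The 3'-most METTL3 peak, from 21967171 to 21967411 with 4.6-fold enrichment and -89.6 as its log10 p in the control, was present with METTL3 (5.94-fold) and METTL14 (1.92-fold) and absent from the other 4 lists. In the control, 149 of its 241 bases also lay under a peak of ENSG00000092203 on the opposite strand, which had a log10 p of -49.1. In the METTL3 list the shared stretch was 121 bases, and in the METTL14 list no opposite peak overlapped it. The libraries were made with a stranded kit per the labels' protocols, but whether reads were counted by strand is not given in the sources used here, so the gene of origin of this peak is uncertain.

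METTL14 (ENSG00000145388), the partner of METTL3, had a single control peak on the plus strand of chromosome 4 from 119612745 to 119631525. It ran through 8 blocks with 1170 bases in all, and 163 of 33672 control peaks had 8 or more blocks. Its log10 p was -697 and its fold enrichment 44.0. The same stretch was called with the METTL14 shRNA itself, again in 8 blocks, of 1110 bases, with 52.9-fold enrichment. It was shorter with METTL3 (5 blocks, 780 bases, 25.4-fold), WTAP (6 blocks, 990 bases, 18.4-fold) and SETD2 #1 (5 blocks, 930 bases, 21.1-fold), where bases at the 5' side were not called. The second set differed most: its second control had 1 block of 241 bases at the 3' end, from 119631225 to 119631465, with 5.74-fold enrichment, and SETD2 #2 had 271 bases there with 4.5-fold. The second control peak covered 20.6% of the METTL14 control bases (64.5% for all control peaks), whereas the METTL14-knockdown list covered 94.9% (68.5%). A further peak on the 5' side, starting at 119606553, was called in both lists of the second set with 3.74 and 2.66-fold enrichment, and from 119606583 with SETD2 #1.

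WTAP (ENSG00000146457), the adaptor, had 4 control peaks on the plus strand of chromosome 6. The 5' peak, from 160147215 to 160148696 1316 bases at 14.2-fold enrichment and -135 as log10 p, appeared in pieces in the knockdowns of the first set. It corresponded to 2 peaks with METTL3 and SETD2 #1 and to 3 with METTL14 and WTAP. The strongest piece had 8.42-fold enrichment with METTL3, 5.81 with METTL14, 5.15 with WTAP and 8.57 with SETD2 #1. In the second control most of it was 1 peak of 1197 bases with 6.99-fold enrichment, and SETD2 #2 shared 629 bases with it, in a peak of 5.19-fold. On the opposite strand, a peak of ENSG00000112096 overlapped WTAP peaks in all 7 lists, by 187 bases of the 5' peak in the control, so the gene of origin of these stretches is uncertain.

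The best supported WTAP peak, from 160169240 to 160169658, had a log10 p of -258 in the control, -131 with METTL3, -57.1 with METTL14, -34.7 with WTAP, -177 with SETD2 #1, -207 in the second control and -226 with SETD2 #2. Its p-value was poorest under the WTAP shRNA. The fold enrichment there was 6.11, 4.3, 4.06, 3.63, 5.6, 4.62 and 5.94 in the same order, again lowest under the WTAP shRNA. In the second set this peak had a further block, and with SETD2 #2 it ran on over the weak peak that follows. An opposite-strand peak shared 89 of its bases in the control and with SETD2 #1, 78 in the second control and 139 with SETD2 #2. Of the control bases under WTAP peaks, the WTAP list covered 57.7% (69.7% for all control peaks) and the METTL14 list 67.2% (68.5%). The METTL3 list covered 81.3% (76.9%) and the SETD2 #1 list 80.1% (71.7%). The weak peak that follows, from 160169837 to 160169957 (1.63-fold, log10 p of -4.95), was absent from all lists but SETD2 #2.

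**Figure D3:**
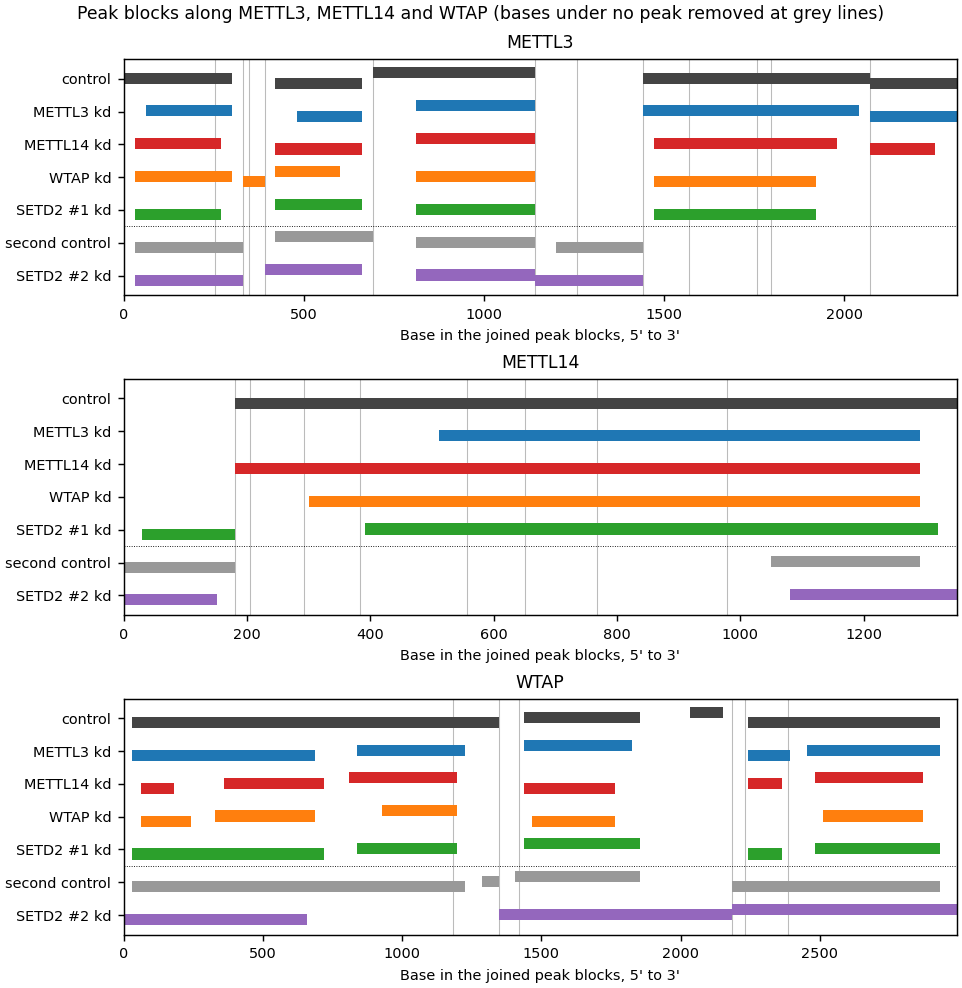
Peak blocks along METTL3, METTL14 and WTAP in the 7 lists (kd, knockdown), with the horizontal axis in bases of all peak blocks joined from the 5' to the 3' end. Bars are blocks, small vertical shifts separate neighbouring peaks, grey lines mark where introns or bases under no peak were removed, and the dotted line separates the sets. The 4-block METTL3 peak and most of the METTL14 peak are present above the dotted line and missing below it.

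VIRMA (ENSG00000164944), the largest regulatory subunit and a scaffold of the complex, was, with CBLL1, one of the members left without a peak in the METTL14 list. It had 3 control peaks on the minus strand of chromosome 8 with 601 bases in all. The bases under its peaks numbered 601 in the control, 242 with METTL3, 0 with METTL14, 121 with WTAP and 422 with SETD2 #1, and 601 in the second control and 990 with SETD2 #2. The METTL14 and WTAP lists were thus the lowest of the first set. The 2 control lists had equal totals, but only 481 of the 601 bases (80.0%) were the same. The 3' peak, from 95531294 to 95531503, had 4.17-fold enrichment in the control, where its log10 p was -38.7. Its log10 p was -8.43 with METTL3, -4.1 with WTAP and -9.6 with SETD2 #1, and no peak was called with METTL14. The second control had -19.4 and SETD2 #2 -29.0. The 5' peak, from 95539566 to 95541481, had a log10 p of -19.2 in the control, -4.01 with METTL3 and -8.03 with SETD2 #1, and was absent with METTL14 and WTAP. In the second set it was better supported, at -29.7 in the second control and -48.7 with SETD2 #2. The middle peak, from 95538728 to 95538908 (1.99-fold), was absent from the METTL3, METTL14 and WTAP lists.

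CBLL1 (ENSG00000105879), also called HAKAI, is a RING-type protein of the complex. Its 3 control peaks on the plus strand of chromosome 7 had the poorest best p-value of any member, a log10 p of -12.3. That best peak, from 107399267 to 107399597 with 3.08-fold enrichment, was also called with METTL3 (2.83-fold) and SETD2 #1 (3.27-fold) and in no other list. The METTL14 and WTAP lists had 0 CBLL1 peaks, and each list of the second set, its control included, had a single one of 121 bases. The 5' peak, from 107384441 to 107384911, had 17.1-fold enrichment with a log10 p of only -4.46, and 125 of its 211 bases lay under an opposite peak of ENSG00000241764. The remaining peak, from 107398638 to 107398788 (1.68-fold), was present with METTL3 and in both lists of the second set.

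ZC3H13 (ENSG00000123200), a zinc finger subunit linked to nuclear retention of the complex, carried the strongest peak of all members. On the minus strand of chromosome 13 from 46543356 to 46554093, it had 4 blocks, 1557 bases and a log10 p of -3580 in the control, rank 266 of 33672. The fold enrichment was 104 in the control, 120 with METTL3, 131 with METTL14, 112 with WTAP, 90.3 with SETD2 #1, 19.3 in the second control and 14.3 with SETD2 #2. These values lay at or above the 99.0th percentile of their own list in the first set and at the 94.4th and 96.3rd in the second. In the lists of the 3 writer knockdowns the fold enrichment of this peak was not below the control value, while its strongest piece covered fewer bases: 1108 with METTL3, 749 with METTL14, 719 with WTAP and 1048 with SETD2 #1.

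Of the weaker ZC3H13 control peaks, only the 3' one was absent from any list. The 3' peak, from 46531084 to 46531383 with 6.86-fold enrichment, had a log10 p of -24.6 in the control, -7.81 with METTL3 and -6.72 with SETD2 #1, and was absent with METTL14 and WTAP. In the second control a peak of 121 bases there had a log10 p of -3.15, and SETD2 #2 had none. Next to it, the peak from 46539459 to 46542128 had a log10 p of -124 in the control, -67.2 with METTL3, -25.7 with METTL14, -39.7 with WTAP, -58.7 with SETD2 #1, -77.3 in the second control and -77.4 with SETD2 #2. The METTL14 list had the poorest of these values. Of the ZC3H13 control bases, 58.4% were covered with METTL14 (68.5% for all control peaks) and 50.1% with WTAP (69.7%). The shares were 80.6% with METTL3 (76.9%), 77.9% with SETD2 #1 (71.7%) and 82.4% in the second control (64.5%).

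RBM15 (ENSG00000162775) and RBM15B (ENSG00000259956) are paralogous RNA-binding subunits that guide the complex to RNA. RBM15 had 4 control peaks on the plus strand of chromosome 1, which covered 2666 bases. The METTL14 list covered 60.8% of its control bases (68.5% for all control peaks) and the WTAP list 69.7% (69.7%). The METTL3 list covered 92.2% (76.9%), the SETD2 #1 list 94.4% (71.7%) and the second control 87.7% (64.5%). The best supported one, from 110882385 to 110883223, had 14.3-fold enrichment in the control, and the strongest overlapping peak had 11.6 with METTL3, 8.81 with METTL14, 6.49 with WTAP, 9.32 with SETD2 #1, 10.7 in the second control and 7.66 with SETD2 #2. With METTL3 it was joined to the peak before it, and with METTL14, WTAP and SETD2 #1 it was called as 2 peaks. The peak from 110882116 to 110882325 (2.81-fold) was absent with METTL14 and WTAP, and the 5'-most, from 110881338 to 110881487 (5.14-fold), with METTL3 and SETD2 #2 as well.

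RBM15B had 2 control peaks on the plus strand of chromosome 3. The main one, from 51429088 to 51431570, was 1 block of 2483 bases with a log10 p of -2430. Its fold enrichment was 36.7 in the control, 36.7 with METTL3, 23.1 with METTL14, 30.2 with WTAP, 16.5 with SETD2 #1, 8.7 in the second control and 6.07 with SETD2 #2. Every list kept it, and the lowest values were those of the second set. The small peak before it, from 51428819 to 51428968 (6.43-fold), was absent with METTL3, METTL14, SETD2 #1 and SETD2 #2. In the second control its counterpart had 32.8-fold enrichment at a log10 p of -9.29, and it was the best supported second control peak absent from SETD2 #2. The other second control peaks absent from SETD2 #2 were a pair in RBM15B and single weak peaks in RBM15, ZC3H13 and WTAP, with log10 p from -2.71 to -4.27.

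**Figure D4:**
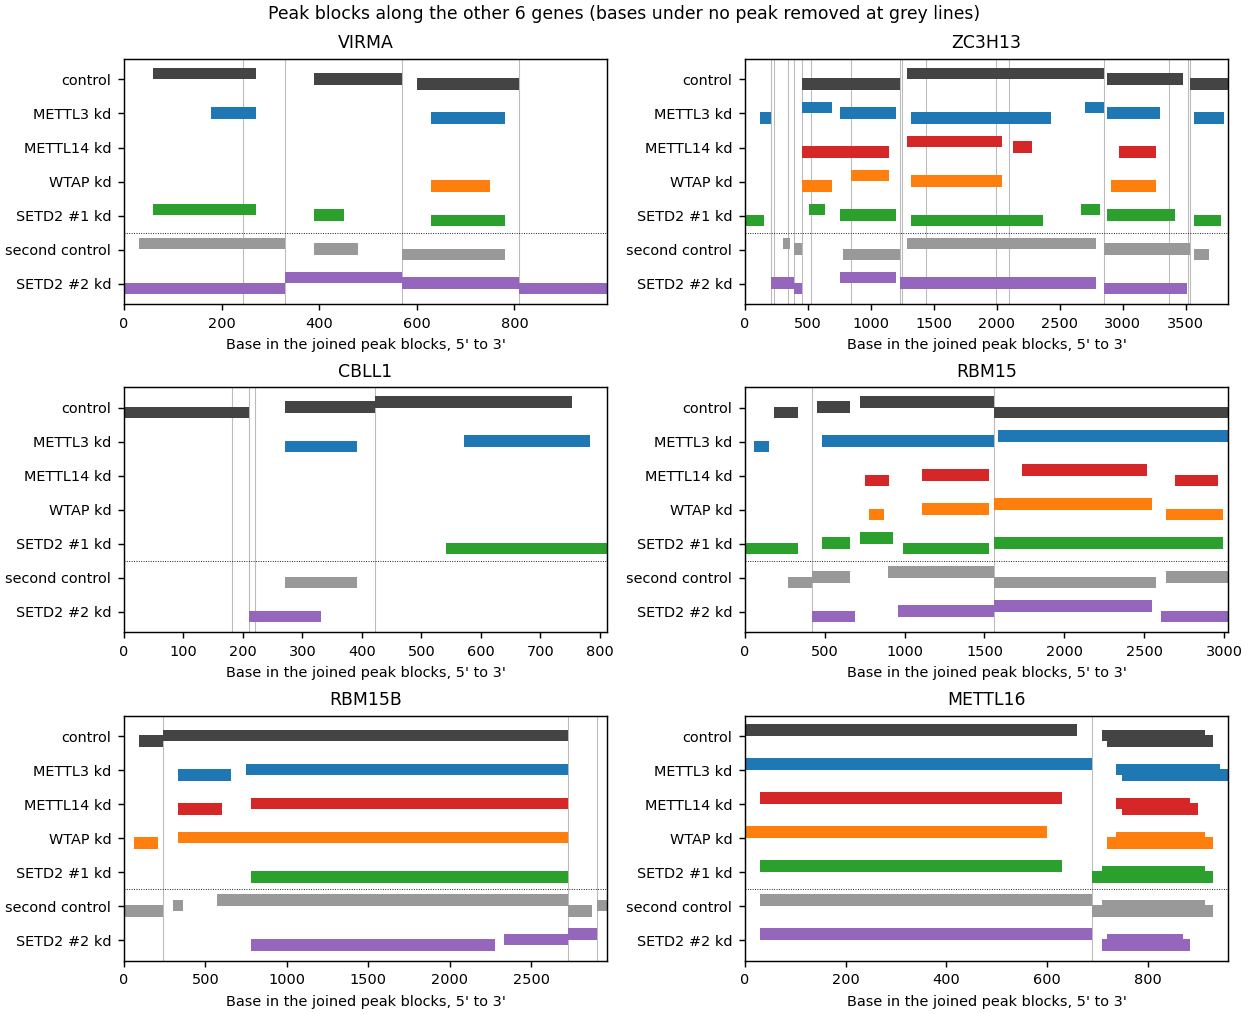
Peak blocks along VIRMA, ZC3H13, CBLL1, RBM15, RBM15B and METTL16 in the 7 lists (kd, knockdown), with the horizontal axis in bases of all peak blocks joined from the 5' to the 3' end. Grey lines mark removed introns or bases under no peak, and the dotted line separates the sets. VIRMA and CBLL1 have no block in the METTL14 row, CBLL1 has none in the WTAP row, and METTL16 has 3 peaks in every row.

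METTL16 (ENSG00000127804), the enzyme outside the complex, had the same 3 peaks in all 7 lists. On the minus strand of chromosome 17, the 5' peak from 2323214 to 2323873 had a log10 p of -372 in the control. The fold enrichment was 71.3 in the control, 32.9 with METTL3, 21.5 with METTL14, 31.2 with WTAP, 34.6 with SETD2 #1, 15.6 in the second control and 9.82 with SETD2 #2. The control had the highest value and all 4 knockdowns of the first set, SETD2 #1 included, lay below it. The other 2 peaks, from 2319502 to 2319711 and from 2319518 to 2319722, overlapped each other and were listed separately for the same gene in every list, with 3.94 and 3.82-fold enrichment in the control. Bases under METTL16 peaks ranged from 762 with METTL14 to 912 with METTL3.

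Most kept peaks with a single match were narrower in the first-set knockdowns, as were most such peaks of all genes. Among writer-transcript peaks that matched 1 peak of the other list, and were matched by it alone, 13 of 15 were narrower with METTL3 than in the control (56.7% of all matched peaks), 9 of 10 with METTL14 (62.4%), 12 of 13 with WTAP (62.2%) and 13 of 17 with SETD2 #1 (64.9%). In the second set the count was 6 of 24 with SETD2 #2 (44.1% of all), and 13 of those 24 were wider (33.4% of all). For the second control, 8 of 19 were narrower than in the control (60.7% of all). The exact 95% intervals of the METTL3 share (59.5 to 98.3%) and the WTAP share (64.0 to 99.8%) lay above their backgrounds. Those for METTL14 (55.5 to 99.7%), SETD2 #1 (50.1 to 93.2%), SETD2 #2 (9.77 to 46.7%) and the second control (20.3 to 66.5%) held theirs. Where a match needed 50% of the bases of each peak, the METTL14 interval (66.1 to 99.8%) lay above its background of 60.5% as well. These intervals cover counting error only, peaks of 1 transcript are not independent, and the backgrounds were not matched for width or strength. In the control the median width was 300 bases for the members and 269 for all peaks, and the median log10 p -38.7 and -11.8. The intervals therefore do not test the members against all peaks, and whether the lists differ from each other was not tested.

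Several kept peaks were called in pieces. Leaving out METTL16, whose overlapping pair always counts as split, control peaks that met 2 or more peaks numbered 5 of 21 with METTL3 (14.1% of all control peaks present there), 6 of 15 with METTL14 (15.8%), 4 of 16 with WTAP (15.5%) and 5 of 21 with SETD2 #1 (15.6%). In the second control it was 3 of 21 (16.9%), and with SETD2 #2 1 of 24 second control peaks (11.0%). In all 4 first-set lists the split peaks included one of WTAP and one of ZC3H13. The shares of all peaks were not matched for width, so they do not set the members apart from peaks of like width. Split control peaks included those of 2483 bases in RBM15B, 1557 in ZC3H13 and 1316 in WTAP. The median width of all control peaks was 269 bases.

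**Figure D5:**
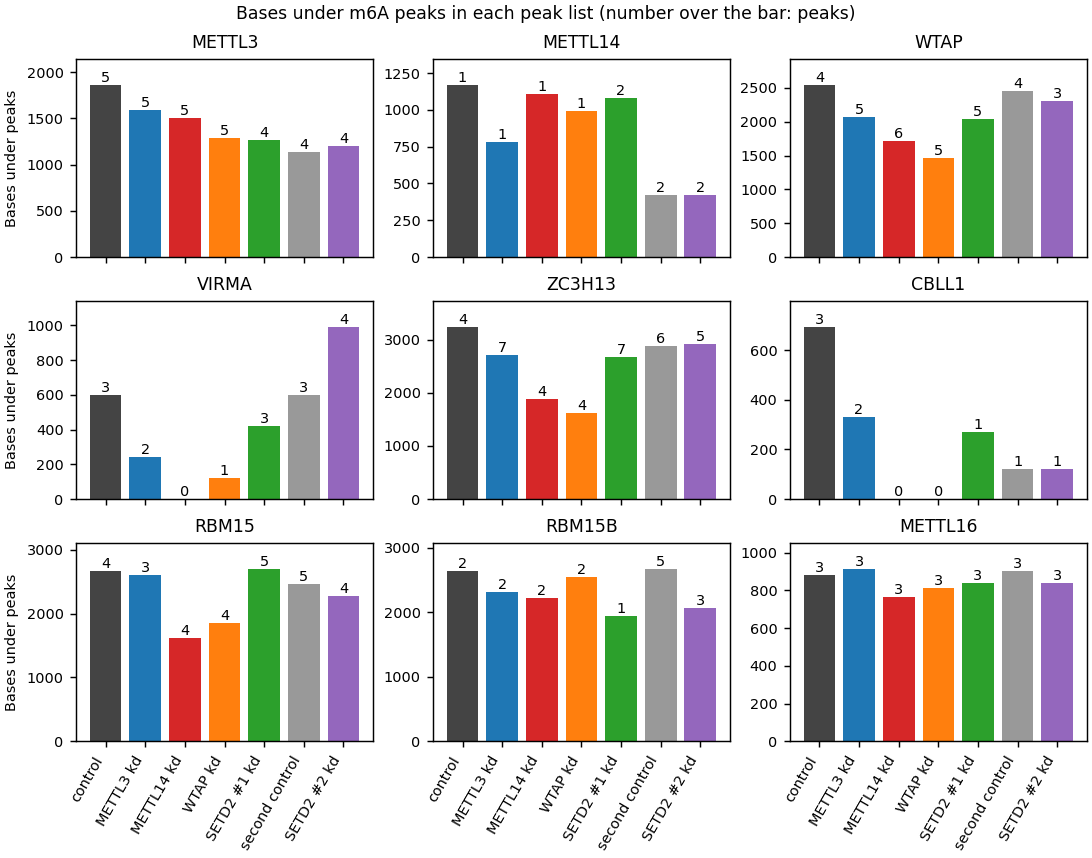
Bases under m6A peaks (vertical axis, from 0) for each gene in the 7 lists (kd, knockdown), with the number of peaks over each bar. VIRMA ranges from 0 to 990 bases and CBLL1 from 0 to 693, METTL14 has 422 bases in both lists of the second set against 780 to 1170 in the first, and METTL16 stays between 762 and 912.

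Summed over the 9 genes, the METTL3 list covered 81.1% of the control bases (76.9% for all control peaks), the METTL14 list 66.4% (68.5%), the WTAP list 65.2% (69.7%) and the SETD2 #1 list 77.8% (71.7%). The SETD2 #2 list covered 86.1% of the second control bases (78.2% for all), and the second control 75.3% of the control bases (64.5%). The members' share was below that of all peaks with METTL14 and WTAP and above it in the other lists. These sums have no interval, and the genes varied widely. With METTL14 the shares ran from 0% (VIRMA and CBLL1) to 94.9% (METTL14). With WTAP they ran from 0% (CBLL1) to 95.4% (RBM15B). The sets also differ over whole lists: the median fold enrichment of all peaks was 6.79 in the control, 5.32 to 7.02 in its knockdowns, 4.33 in the second control and 3.81 with SETD2 #2. Levels from the 2 sets are therefore given side by side, and whether the second-set values on METTL3, METTL14, ZC3H13 and RBM15B differ for that reason was not tested.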

How the data were processed

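The series holds 42 m6A-seq samples in 14 groups of 3 libraries. Per the submitters' processing notes, the tools were FastQC 0.11.5 and TopHat2 2.1.1 with build hg19. Per the labels, exomePeak output covers replicates 1 to 3 jointly. Its version and gene annotation: not given in the sources used here. The deposited tables give each peak's p-value, the log10 of p and of FDR as scores, and the fold enrichment (ratio of IP to input). Depth is unknown. Repeated rows (11 to 21 per list) were counted once, and shorter deposited lists served as an alternative.

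Overlaps were computed with bedtools 2.31.1, and all else used pandas 2.3.3, numpy 2.4.6, scipy 1.17.1 and matplotlib 3.10.9 under Python 3.11.15. The overlap call was checked against a separate base-by-base count, on the control list with some of its peaks removed at random. No test between conditions was possible with 1 list each. All 9 members are named, with each gene's best supported or most enriched control peak, the absent peaks and the gained ones. The members and lists were chosen with earlier results of these data known. Other m6A pathway genes and cell markers were not analysed here, because identifiers could not be paired with names.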

Additional observations from a re-analysis of the deposited data

How the results depend on the processing

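No paired analysis was possible because each list was made from replicates 1 to 3 jointly, which also prevents leaving a replicate out. Shares of absent peaks on writer transcripts moved beyond their intervals in the following cases, and the cause was not tested. Each share is followed by that of all peaks. In the shorter deposited lists, 4.35% of control peaks were absent from METTL3 (20.4%) and 4.35% from SETD2 #1 (26.2%), and 0% of METTL3 (10.5%), 0% of WTAP (13.5%) and 0% of SETD2 #1 peaks (6.82%) from the control. Among peaks at or better than the median p-value, 0% were absent from METTL3 (2.42%), 18.2% from METTL14 (7.9%) and 4.55% from SETD2 #1 (3.24%), and of second control peaks 0% from SETD2 #2 (2.66%) and 4.76% from the control (6.06%). Where a match needed 50% of the bases of each peak, the control lacked 36.4% of second control peaks (40.8%), 26.7% of METTL3 (27.9%), 36.0% of METTL14 (35.9%), 36.0% of WTAP (35.6%) and 29% of SETD2 #1 peaks (28.1%), close to the shares of all peaks. With fold enrichment of at least 3 the SETD2 #1 list kept 19 of its peaks. These are 16 of 81 planned cases. The other 65 stayed within the interval or, for numbers of peaks, within 1.5 times, but 7 of them are shares that differ by over 1.5 times. They include peaks absent from WTAP at the median p-value (18.2%, in place of 34.5%) and, in the shorter lists, second control peaks absent from SETD2 #2 (8.7%, in place of 18.2%) and the reverse (12%, in place of 3.45%). Counting the overlapping METTL16 peaks once, chosen after seeing the data, moved 0 of 12 shares. The number of members limits precision, and unknown depth limits the calling of weak peaks.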

Other observations

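Each gene with at least 5 control peaks was compared with the 9 writer genes summed, by the share of its control bases covered in each of the 6 other lists. Likeness was the Euclidean distance between the 6 shares, written as fractions. Among 1401 such genes outside the members, the nearest were ENSG00000127603 at a distance of 0.0797 and ENSG00000135763 at 0.0902, and the median distance was 0.459. The files do not pair these identifiers with names. Sharing of such a pattern says nothing of shared control.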
